A study of Mus musculus with 10 samples.

Results

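The mitochondrial ribosomal protein genes examined here are the 78 gene symbols, of the 25239 in the tables, that consist of Mrpl or Mrps, a number and at most 1 further letter. By that spelling 49 belong to the large (Mrpl) and 29 to the small (Mrps) subunit. They were measured by RNA sequencing of total RNA in cardiomyocytes, the contractile muscle cells of the heart, taken from wild-type mice, with 5 libraries labelled atrium and 5 libraries labelled as ventricular. No treatment, age or sex is given, and the labels do not say whether libraries of a chamber came from separate animals or from pools, so p-values refer only to the variation among the libraries at hand, and this may be technical. All 78 symbols matched protein-coding genes of GENCODE release M21 (GRCm38), spread over 17 chromosomes. The values, here called normalized reads, are counts of reads after the authors' division by a size factor of the library. Every member averaged at least 10 normalized reads over the 10 libraries, the minimum for testing, and none had fewer than 8 reads in any library.

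Mitochondria keep a small genome of their own, and its messages for subunits of the respiratory chain are translated inside the organelle by a dedicated ribosome. The RNA core of this mitoribosome is encoded in mitochondrial DNA, whereas all of its proteins are encoded in the nucleus, made in the cytosol and imported. The small subunit binds and decodes the message. The large subunit joins amino acids and releases the growing chain at the inner membrane, and many of its proteins have no bacterial counterpart. The heart depends heavily on respiration, and inherited defects of several of these proteins, Mrpl3, Mrpl44 and Mrps22 among them, are known to cause cardiomyopathy in patients. Symbols and structure do not match everywhere: Mrps18a and Mrps30 sit in the large subunit, and Mrps36 is now known as a component of the 2-oxoglutarate dehydrogenase complex of the citric acid cycle.

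The libraries held 1790402 to 12842635 reads. They fell into 2 sets that the labels do not mention: replicates 1 and 2 of both chambers had 1790402 to 4445287 reads with 0.215% to 0.480% of them from Rn45s, the ribosomal RNA precursor, and replicates 3 to 5 had 11163805 to 12842635 reads with 23.1% to 29.8%. Reads assigned to the 78 genes numbered 7306 to 14433 in the first set and 22764 to 35363 in the second. Both sets hold both chambers. Replicate 1 stood apart in the number of genes above 0, at 21576 in the atrial and 19232 in the ventricular library. Replicate 2 had 15950 (atrial) and 16458 (ventricular), and replicates 3 to 5 had 16064 to 16618. The cause of this was not tested. Markers followed the chamber labels, with all 4 atrial markers (Myl7, Myl4, Sln and Nppa) called higher and all 4 ventricular markers (Myl2, Myl3, Irx4 and Hey2) called lower in atrial libraries. The atrial markers summed to 122141 to 440368 normalized reads in atrial and 2615 to 27742 in ventricular libraries. The ventricular markers summed to 461 to 1743 in atrial and 114947 to 161460 in ventricular libraries. General cardiomyocyte markers summed to 301883 to 435814 normalized reads in atrial and 317345 to 409513 in ventricular libraries, with 0 of 6 called different by limma (1 of 6 at an unadjusted p under 0.05, and 0 of 6 called by edgeR) and a median log2 difference of -0.21. With the replicate number as a block 3 of these 6 were called lower in atrial libraries (16% of all genes tested). In replicates 3 to 5 alone 3 of 6 were lower as well (26.6%), and with edgeR and the block 2 of 6 (18.3%).

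Many messages for the mitoribosome were lower in atrial than in ventricular cardiomyocytes, and 1 was higher. Of the 49 large-subunit genes, 20 were lower in atrial libraries, 0 were higher and 29 did not pass the test. Of the 29 small-subunit genes, 7 were lower, 1 (Mrps6) was higher and 21 did not pass. Genes were compared with limma (moderated, two-sided) on log2(normalized reads + 1) over all 12422 genes tested, and a gene is called when its Benjamini-Hochberg adjusted p lies under 0.05. Of all genes tested, 6.56% were called lower and 8.12% higher in atrial libraries. The median log2 difference, atrial minus ventricular, was -0.45 over the large-subunit genes and -0.49 over the small-subunit genes, beside -0.01 over all genes tested. At an unadjusted p under 0.05 the large subunit had 31 lower and 0 higher genes and the small subunit 16 lower and 1 higher, and 0 large-subunit genes were called higher by edgeR or DESeq2 either. On recovered reads edgeR called 22 large-subunit and 8 small-subunit genes lower (7.37% of all genes tested) and Mrps6 higher (8.83%), and DESeq2 called 23 and 12 lower (9.81%) and Mrps6 higher (10.9%). The direction was shared more widely than the calls: 76 of the 78 estimates were negative, against 51.3% of all genes tested, and Mrpl17 and Mrps6 were the exceptions. Fewer cells of a type and less RNA per cell cannot be told apart in such libraries.

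The counts of calls moved with the choice of libraries and with the replicate numbers, while the medians moved little. With the replicate number as a block 37 large-subunit and 24 small-subunit genes were lower, beside 16% of all genes tested, with Mrps6 still the 1 member called higher (16.3% of all genes). With the library set as a term in place of the block 37 and 24 were lower (15.8% of all genes tested), and with edgeR and the block 37 and 25 (18.3%). Leaving out 1 library gave 10 to 21 large-subunit genes and 3 to 9 small-subunit genes called lower. The large-subunit count fell to 13 without atrial replicate 1 or 3, to 12 without atrial replicate 4 or ventricular replicate 2, to 11 without ventricular replicate 3, and to 10 without atrial replicate 5 or ventricular replicate 4. The small-subunit count fell to 4 without atrial replicate 4 or ventricular replicate 2 or 5, and to 3 without atrial replicate 5 or ventricular replicate 3. In replicates 3 to 5 alone 42 large-subunit and 26 small-subunit genes were lower (26.6% of all genes tested, with 52.8% called in either direction), and in replicates 1 and 2 alone 1 and 0 were (2.04% of all genes tested, with 3.09% higher), with 15 and 9 at an unadjusted p under 0.05. Scaled to equal library totals, 6 large-subunit and 3 small-subunit genes were called lower (4.34% of all genes tested, with 8.16% higher), with medians of -0.38 and -0.42.

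**Figure D1:**
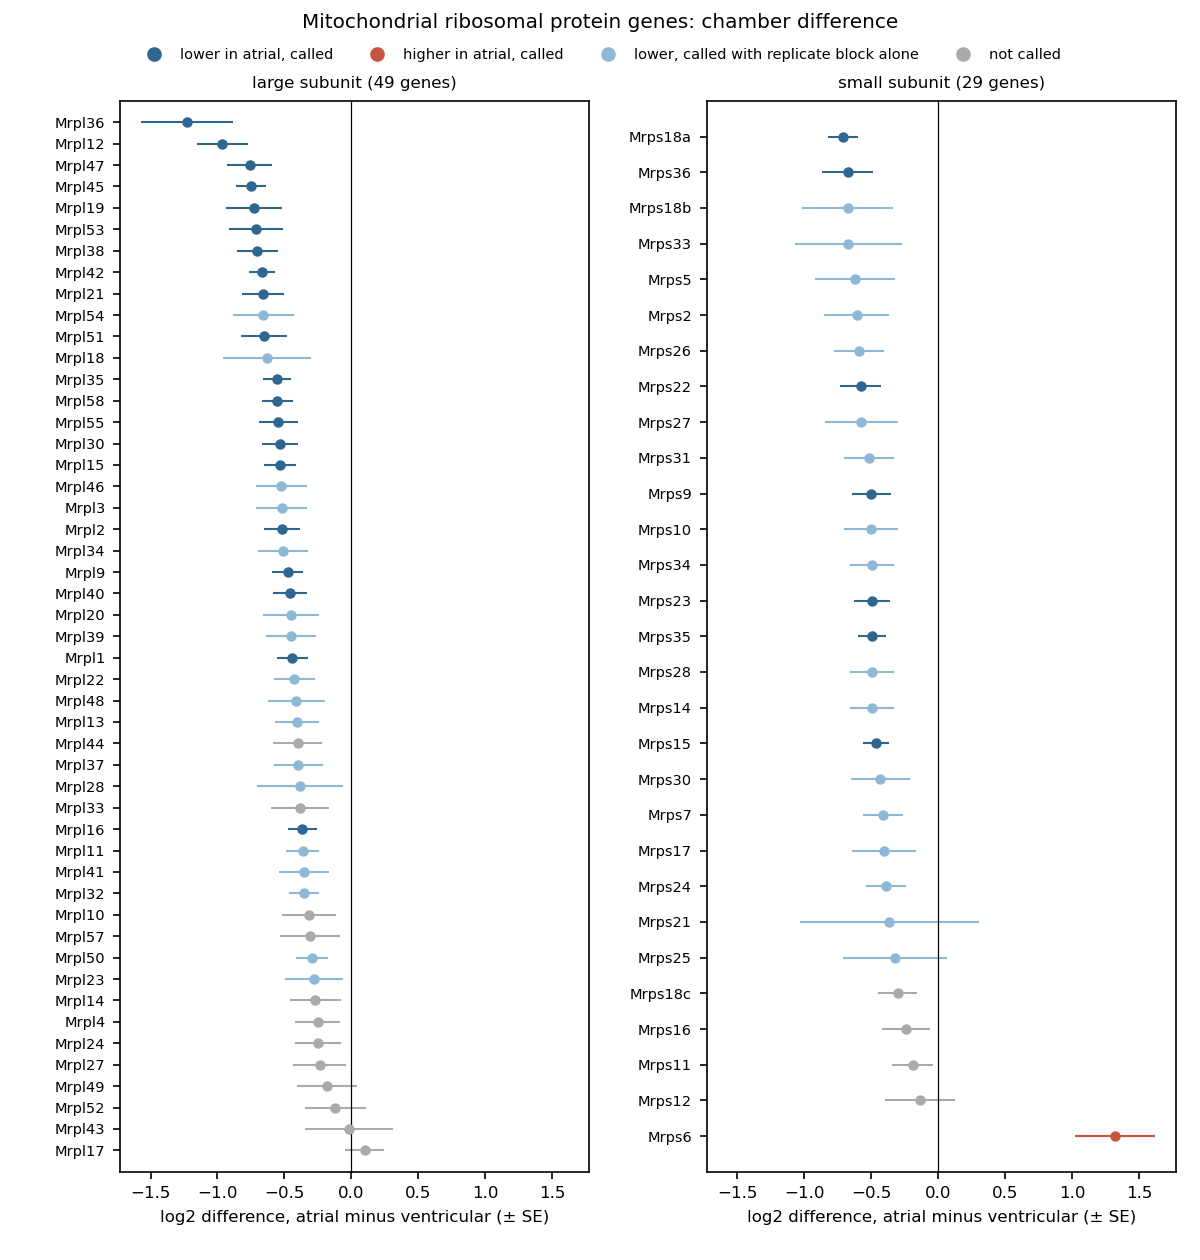
Log2 difference, atrial minus ventricular, of every large-subunit gene (left, 49 genes) and small-subunit gene (right, 29 genes), each with its standard error in the fit without replicate block; colours mark the call. All points but those of Mrpl17 and Mrps6 lie to the left of 0, and Mrps6 is the 1 gene called higher in atrial libraries.

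Summed over the subunit, the difference was visible in each library. In order of replicate number, the 49 large-subunit genes came to 10303, 13302, 10614, 10043 and 9514 normalized reads in the atrial libraries. In the ventricular libraries the same sum was 16192, 19331, 14391, 14154 and 13725. Every atrial sum lay below every ventricular one, with means of 10755 ± 1480 and 15559 ± 2309 (SD, n = 5 each) and a ratio of 1.45. The 29 small-subunit genes summed to 6589, 7473, 5616, 5272 and 5137 in atrial and to 9086, 10008, 7522, 7116 and 7313 in ventricular replicates 1 to 5. Here atrial replicate 2 reached above the lowest ventricular sums, so the chambers overlapped, with means of 6017 ± 992 and 8209 ± 1272 (SD, n = 5 each) and a ratio of 1.36. Taken replicate number by replicate number, the ventricular sum exceeded the atrial one 1.36-fold to 1.57-fold for the large subunit and 1.34-fold to 1.42-fold for the small subunit. The ratio of the large-subunit to the small-subunit sum ranged from 1.56 in atrial replicate 1 to 1.99 in ventricular replicate 4, and the ranges of the chambers overlapped. These sums are weighted towards the few abundant members and are a description without a test.

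**Figure D2:**
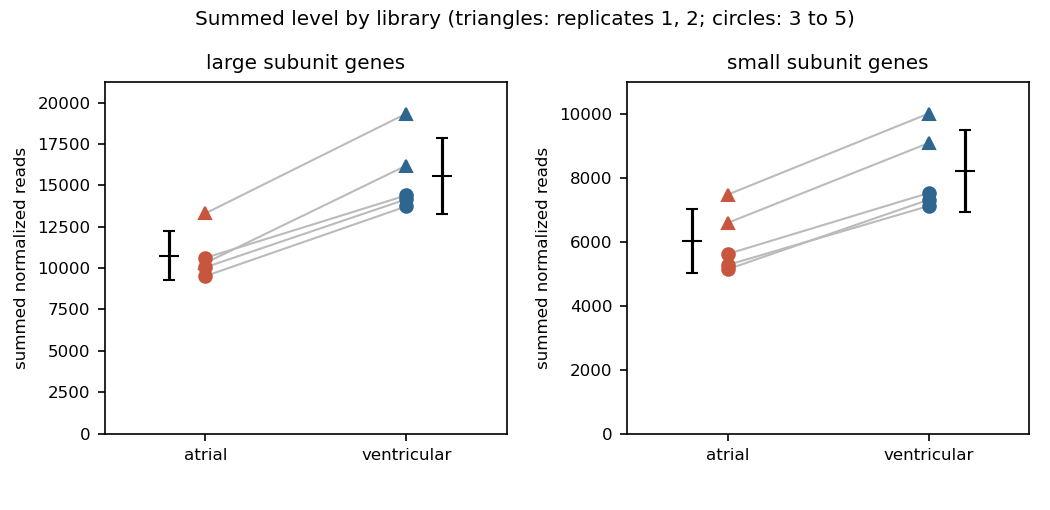
Summed normalized reads of the large-subunit genes (left) and the small-subunit genes (right) in each library, with lines joining libraries of the same replicate number and bars giving mean ± SD of 5 libraries. For the large subunit all 5 atrial sums (9514 to 13302) lie below all 5 ventricular sums (13725 to 19331).

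Gene by gene, 24 members had atrial and ventricular values that did not overlap, 23 of them with the atrial libraries lower, which 6.55% of all genes tested showed. In 62 of the 78 members (37 large, 25 small) the atrial library was lower in all 5 same-numbered pairs, as in 20.7% of all genes tested. Of the 27 members called lower, 21 did not overlap, and Mrpl1, Mrpl30, Mrpl36, Mrpl51, Mrps22 and Mrps36 did. Mrpl32 and Mrpl50 did not overlap and were not called without the block.

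The most clearly lower gene of the large subunit was Mrpl42, a protein with no bacterial counterpart (chr10:95480805-95501940, reverse strand). It stood at 743, 875, 757, 779 and 765 normalized reads in atrial replicates 1 to 5 and at 1259, 1365, 1169, 1155 and 1286 in ventricular replicates 1 to 5. No atrial library came near the lowest ventricular one. The means were 784 ± 52.6 and 1247 ± 86.8 (SD, n = 5 each), 1.59-fold higher in ventricular libraries, with a log2 difference of -0.67 ± 0.09 (SE; limma adjusted p = 0.000798). Mrpl45, which lies at the mouth of the exit tunnel and anchors the ribosome to the inner membrane (chr11:97315716-97329920, forward strand), stood at 214, 276, 231, 231 and 205 in atrial and at 381, 441, 400.3, 349 and 373 in ventricular replicates 1 to 5. The ventricular mean was 1.68 times the atrial one, and the log2 difference of -0.75 ± 0.11 (SE; limma adjusted p = 0.00124) again came without overlap. Mrps18a, a small-subunit symbol whose protein sits in the large subunit (chr17:46110986-46128910, forward strand), stood at 121, 149.7, 126, 124 and 124 in atrial and at 211, 224, 237, 198 and 187 in ventricular replicates 1 to 5. Apart from atrial replicate 2 its atrial values were nearly equal, all 5 lay below the ventricular ones, and its log2 difference was -0.71 ± 0.11 (SE; limma adjusted p = 0.00171).

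Translation factors dock on the stalk of the large subunit, which carries Mrpl12 on a base of Mrpl10 and Mrpl11, while the stalk on the opposite side holds Mrpl1 and guides the spent transfer RNA out. Of these 4 genes 2 were lower (6.56% of all genes tested), and 3 with the replicate block (16% of all genes). Mrpl12, which is also known to bind the mitochondrial RNA polymerase (chr11:120484613-120489065, forward strand), stood at 469, 694, 502, 434 and 427 normalized reads in atrial and at 1128, 1389, 819, 851 and 788 in ventricular replicates 1 to 5. Its ventricular mean of 995 ± 259 was 1.97 times the atrial mean of 505 ± 109.7 (SD, n = 5 each), a log2 difference of -0.97 ± 0.19 (SE; limma adjusted p = 0.00609). Among members without an overlapping gene no other log2 difference was as large in the lower direction. Its partner on the base, Mrpl10, stood at 116, 168, 116, 97.3 and 92.03 in atrial and at 183, 183, 133, 115 and 122 in ventricular replicates 1 to 5. Every pair had the lower value in the atrial library, but the chambers overlapped and the log2 difference of -0.32 ± 0.20 (SE) did not pass (limma adjusted p = 0.378, and 0.0511 with the block). Mrpl11 gave -0.36 ± 0.12 (SE; adjusted p = 0.0771, and 0.0464 with the block), and Mrpl1 was lower at -0.44 ± 0.12 (SE; adjusted p = 0.0280). The call of Mrpl1 was lost without any 1 of 7 libraries (atrial replicates 1, 4 and 5 and ventricular replicates 2 to 5), with adjusted p up to 0.0758, while Mrpl12 kept its call without each library in turn and lost it at equal library totals (0.0604).

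Around the exit tunnel, where the new chain leaves for the membrane, 2 of 6 genes were lower (6.56% of all genes tested). With the block 4 were lower (16% of all genes). The 2 genes were Mrpl45 and Mrpl47, and the block added Mrpl22 and Mrpl23. Mrpl47 averaged 116 ± 22.3 normalized reads in atrial and 197 ± 37.99 in ventricular libraries (SD, n = 5 each) without overlap, a log2 difference of -0.76 ± 0.17 (SE; limma adjusted p = 0.0106). Its exons overlap those of Actl6a and Ndufb5 on the opposite strand. The more abundant of these partners averaged 1139 normalized reads over all libraries, so some reads of Mrpl47 may not be its own. Mrpl17 was the 1 large-subunit gene with a positive estimate. It stood at 161, 181, 126, 131 and 117 in atrial and at 118, 141, 144, 128 and 131 in ventricular replicates 1 to 5. The first 2 atrial libraries were above their ventricular partners and the other 3 were mixed, with a log2 difference of 0.10 ± 0.14 (SE; limma adjusted p = 0.770), which turned to -0.11 in replicates 3 to 5 alone.

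The central protuberance, the crown of the large subunit that faces the small one, is represented by Mrpl18, Mrpl38, Mrpl40, Mrpl46 and Mrpl48. Of these 5 genes 2 were lower (6.56% of all genes tested), and all 5 were with the block (16% of all genes). The median log2 difference of the 5 genes was -0.52. Mrpl38 stood at 88.3, 134, 106, 92.6 and 97.2 normalized reads in atrial and at 138, 205, 167, 170.4 and 162 in ventricular replicates 1 to 5. No atrial value reached the lowest ventricular one, and the log2 difference was -0.70 ± 0.15 (SE; limma adjusted p = 0.00921). Mrpl40 was lower at -0.46 ± 0.13 (SE; adjusted p = 0.0346), a call lost without any 1 of 8 libraries (all but atrial replicate 2 and ventricular replicate 2), with adjusted p up to 0.0894. Mrpl18, a protein of bacterial type, differed within pairs and between the library sets. It stood at 1069, 1806, 894, 844 and 775 in atrial and at 2263, 2964, 1189, 1103 and 1137 in ventricular replicates 1 to 5, so that each atrial library was below its partner and replicates 1 and 2 of each chamber lay above the other 3, atrial replicate 1 by the least. The difference of -0.63 ± 0.33 (SE) did not pass without the block (limma adjusted p = 0.263) and passed with it (0.00238).

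Of the 18 large-subunit genes listed as mitochondria-specific 7 were lower (6.56% of all genes tested), with a median of -0.45. Of the other 31 large-subunit genes 13 were, with a median of -0.44. With the block the counts were 14 of 18 and 23 of 31 (16% of all genes). The 9 small-subunit genes of this kind gave 3 lower with a median of -0.52 and 9 with the block. The other 20 small-subunit genes gave 4 lower and Mrps6 higher (6.56% and 8.12% of all genes tested). Their median was -0.45, and 15 were lower with the block. The other small-subunit genes include Mrps36, the dehydrogenase component. The lists therefore do not strictly divide proteins with and without bacterial counterparts, and the difference between listed and other genes was not tested. Mrpl58, which rescues stalled ribosomes by cutting the chain from its transfer RNA, was lower at 163 ± 16.5 against 239.7 ± 21.99 normalized reads (SD, n = 5 each; log2 difference -0.55 ± 0.11, limma adjusted p = 0.00723). Mrpl44, with a fold like that of RNase III, stood at 106 ± 18.1 against 142 ± 33.2 and did not pass (log2 difference -0.40 ± 0.18, adjusted p = 0.186, and 0.0722 with the block). Mrpl3, next to the site where peptide bonds form, gave -0.52 ± 0.19 (SE; adjusted p = 0.101) and passed with the block (0.00358).

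Other large-subunit genes called lower were Mrpl35, Mrpl15, Mrpl21, Mrpl9, Mrpl30, Mrpl51, Mrpl2, Mrpl55, Mrpl19, Mrpl53 and Mrpl16, with log2 differences from -0.73 (Mrpl19) to -0.37 (Mrpl16). Without 1 library the call of Mrpl9 was lost in 1 case (atrial replicate 3, adjusted p = 0.0513), that of Mrpl30 in 5 (atrial replicates 4 and 5 and ventricular replicates 2, 4 and 5, up to 0.0647) and that of Mrpl51 in 7 (atrial replicates 1, 3, 4 and 5 and ventricular replicates 2 to 4, up to 0.0702). The calls of Mrpl2 (atrial replicates 3 to 5 and ventricular replicates 2 to 4, up to 0.0756), Mrpl55 (atrial replicates 1, 3 and 5 and ventricular replicates 2 to 4, up to 0.0735) and Mrpl19 (atrial replicates 1, 2 and 5 and ventricular replicates 3 to 5, up to 0.0953) were each lost without any 1 of 6 libraries. That of Mrpl53 was lost without any 1 of 7 (all but atrial replicate 3 and ventricular replicates 1 and 5, up to 0.101) and that of Mrpl16, at 0.0480 over all libraries, without any 1 of 9 (all but ventricular replicate 5, up to 0.117), whereas Mrpl15, Mrpl21 and Mrpl35 kept theirs. Mrpl35 averaged 227 ± 22.01 in atrial and 334 ± 23.6 in ventricular libraries (SD, n = 5 each) without overlap. Mrpl2, a core protein close to the catalytic centre, averaged 258 ± 35.7 and 370.5 ± 54.5, also without overlap. The widest log2 difference in the lower direction belonged to Mrpl36, a small protein of bacterial type with few reads (chr13:73328513-73332178, forward strand). It stood at 37.2, 56.1, 24.99, 17.7 and 21.2 normalized reads in atrial and at 79.6, 119, 58.2, 59.5 and 46.3 in ventricular replicates 1 to 5. Within each pair the atrial library was lower, although atrial replicate 2 reached into the ventricular range, and the means of 31.5 ± 15.6 and 72.6 ± 28.8 (SD, n = 5 each) differed 2.31-fold, a log2 difference of -1.22 ± 0.34 (SE; limma adjusted p = 0.0356). This call was lost without any 1 of 7 libraries (atrial replicates 3 to 5 and ventricular replicates 1 to 4), with adjusted p up to 0.0901. Mrpl36 starts 29 bases from Ndufs6, a complex I subunit on the opposite strand whose exon it overlaps by 30 bases and which averaged 371 ± 155 against 883 ± 299 (log2 difference -1.30 ± 0.35, adjusted p = 0.0312), so reads of the neighbours cannot be told apart with certainty.

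**Figure D3:**
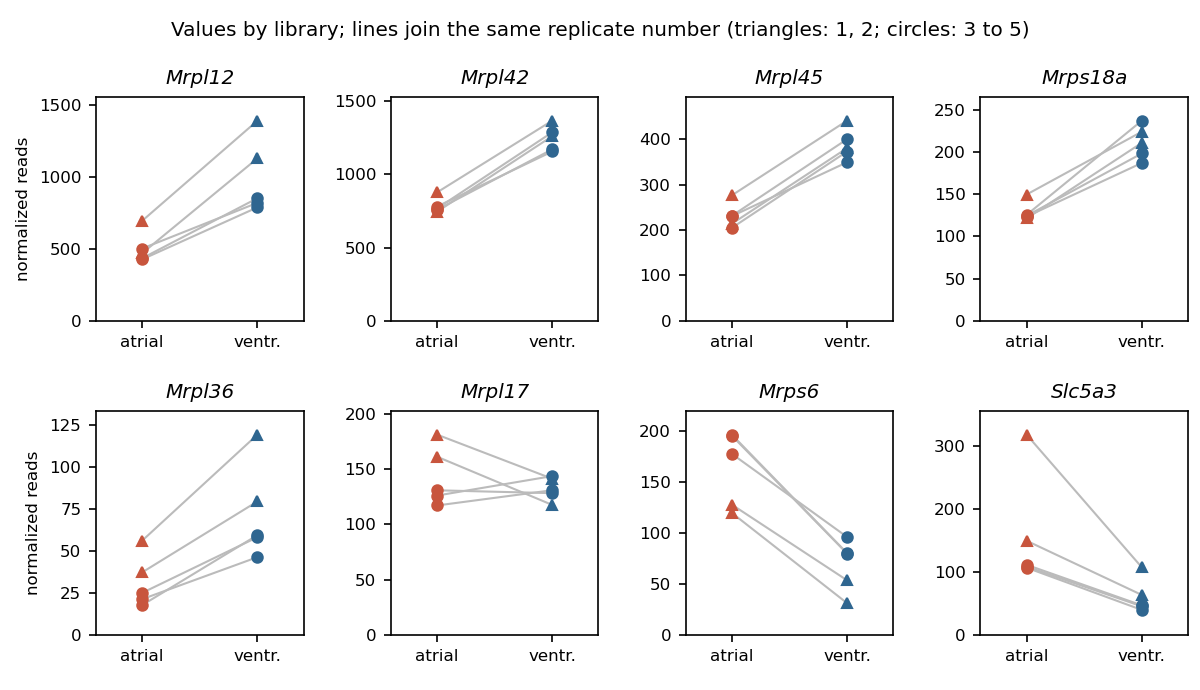
Normalized reads by library for 7 members and for Slc5a3, with lines joining libraries of the same replicate number. Lines rise from atrial to ventricular in all 5 pairs for Mrpl12, Mrpl42, Mrpl45, Mrps18a and Mrpl36, are mixed for Mrpl17, and fall in all 5 pairs for Mrps6 and Slc5a3.

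In the small subunit, Mrps15, a bacterial-type protein that binds the ribosomal RNA directly, stood at 269, 273, 275, 259 and 252 normalized reads in atrial and at 343, 405, 385, 326 and 376 in ventricular replicates 1 to 5. The atrial values were tight, all below the lowest ventricular one, and the log2 difference was -0.46 ± 0.10 (SE; limma adjusted p = 0.00833). Mrps35, a mitochondria-specific protein, stood at 342, 415, 355, 330.2 and 301 in atrial and at 491, 531, 464, 465 and 493 in ventricular replicates 1 to 5. It too showed no overlap, with a log2 difference of -0.49 ± 0.11 (SE; limma adjusted p = 0.00987). Mrps22 was lower at -0.58 ± 0.15 (adjusted p = 0.0258, and up to 0.0703 without 1 of 5 libraries, namely atrial replicates 3 to 5 and ventricular replicates 2 and 3). Mrps23 was lower at -0.49 ± 0.14 (adjusted p = 0.0332, lost without any library but atrial replicates 3 and 4 and ventricular replicate 1, up to 0.0848). Mrps36, the dehydrogenase component, was lower at -0.68 ± 0.19 (adjusted p = 0.0370, lost without any library but atrial replicate 3 and ventricular replicate 1, up to 0.0965).

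Along the path of the message through the small subunit and at its decoding centre, 1 of 7 genes was lower (6.56% of all genes tested). With the block 5 were lower (16% of all genes), and the median log2 difference of the 7 genes was -0.41. The 1 gene was Mrps9, which averaged 531 ± 79.8 in atrial and 751 ± 122 in ventricular libraries (SD, n = 5 each; log2 difference -0.50 ± 0.14, limma adjusted p = 0.0409), a call lost without any 1 of 7 libraries (atrial replicates 3 to 5 and ventricular replicates 1, 2, 3 and 5), up to 0.106. The block added Mrps2, Mrps5, Mrps7 and Mrps24. Mrps12, the counterpart of the bacterial protein at which streptomycin resistance arises, stood at 35.9, 35.99, 65.9, 58.96 and 64.4 in atrial and at 62.3, 34.1, 60.7, 54.1 and 74.1 in ventricular replicates 1 to 5. Neither chamber was consistently higher, and the log2 difference was -0.13 ± 0.26 (SE; adjusted p = 0.843). Mrps11 gave -0.19 ± 0.15 (SE; adjusted p = 0.519) and did not pass with the block either (0.144). The 3 related symbols Mrps18a, Mrps18b and Mrps18c, of which the last is the closest to the bacterial protein in the same place, gave -0.71 ± 0.11, -0.67 ± 0.34 and -0.30 ± 0.14 (log2 difference ± SE), and Mrps18a alone passed without the block.

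Mrps6 was the 1 member called higher in atrial libraries. The gene encodes a bacterial-type protein of the small-subunit platform (chr16:92058270-92112227, forward strand). It stood at 120.0, 128, 196, 178 and 197 normalized reads in atrial replicates 1 to 5 and at 31.1, 53.6, 79.9, 96.2 and 80.3 in ventricular replicates 1 to 5. Every atrial library was above every ventricular one, with means of 164 ± 37.2 and 68.2 ± 25.8 (SD, n = 5 each), 2.40-fold higher in atrial libraries, and a log2 difference of 1.32 ± 0.30 (SE; limma adjusted p = 0.0118). The sodium and myo-inositol transporter gene Slc5a3 lies on the same strand and shares 159 bases of exon with Mrps6. Slc5a3 stood at 319, 149.7, 108, 111 and 107 in atrial and at 107, 63.4, 45.2, 46.8 and 39.5 in ventricular replicates 1 to 5, so that the highest ventricular value, of replicate 1, lay just above the lowest atrial one, of replicate 5. Its log2 difference was 1.34 ± 0.35 (SE; limma adjusted p = 0.0270, and 5.42e-05 with the block), in the same direction and of about the same size as that of Mrps6. Within a chamber, however, the genes ordered the library sets in opposite ways: Mrps6 was lower and Slc5a3 higher in replicates 1 and 2 than in replicates 3 to 5. How reads of the shared exon were divided between the genes is not given in the sources used here, so the part of these reads in the value of Mrps6 was not tested.

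Other overlaps touch more members. In the annotation 26 of the 78 genes overlap another gene of the tables, 24 of them in exons and 21 in exons on the opposite strand. In 10 members an exon-overlapping partner was the more abundant gene (Mrpl14, Mrpl18, Mrpl36, Mrpl43, Mrpl44, Mrpl46, Mrpl47, Mrpl48, Mrps24 and Mrps34). Of these members 2, Mrpl36 and Mrpl47, were called. Among members that overlap nothing, 14 of 32 large-subunit and 6 of 20 small-subunit genes were lower, with medians of -0.45 and -0.49 (27 and 17 with the block), and 0 were higher, Mrps6 being among those set aside. A processed copy with at least 90% identity over at least 200 bases exists for 24 members, Mrpl12, Mrpl42 and Mrpl45 among them and with 8 copies of Mrps36. Of these copies 1 is in the tables, so reads that belong to the others may have been counted for the parent gene or lost.

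Levels between genes are compared per kilobase of exon sequence, the union of all annotated exons (739 bases for Mrps21 and 7605 for Mrpl17), so the order depends on that length. On that scale members ranged from 18.1 to 1005 normalized reads per kb (mean of the chambers), with a median of 73.5. Mrpl18 was the highest, at 771 ± 302 in atrial and 1238 ± 603 in ventricular libraries (SD, n = 5 each), followed by Mrps21 at 627 ± 507 and 807 ± 659, with spreads that overlap. The place of Mrps21 rests on replicates 1 and 2, which stood 4.52-fold (atrial) and 4.63-fold (ventricular) above replicates 3 to 5. The lowest were Mrpl17, at 18.9 ± 3.55 and 17.4 ± 1.39, and Mrpl57, at 16.4 ± 4.33 and 20.3 ± 5.14. The order of the genes was nearly shared by the chambers (Spearman's rho 0.95 across the 78 genes, which are no independent replicates and share annotation lengths and libraries).

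**Figure D4:**
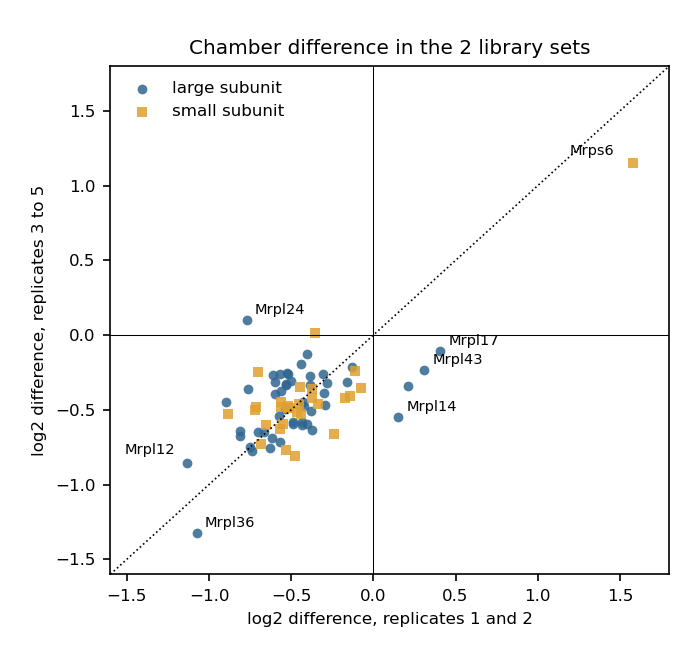
Log2 difference, atrial minus ventricular, of each member in replicates 1 and 2 (horizontal) and in replicates 3 to 5 (vertical), with the line of equality dotted. Of the 78 members 71 lie below 0 in both sets, and Mrps6 lies above 0 in both. Mrpl24 and Mrps12 are negative in the first set and slightly positive (0.10 and 0.012) in the second. Mrpl14, Mrpl17, Mrpl43 and Mrpl52 are positive in the first set and negative in the second.

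Between the library sets the chamber difference was mostly alike and the levels were not. In 71 members the estimate was negative in both sets. Mrpl14, Mrpl17, Mrpl43 and Mrpl52 had positive estimates in replicates 1 and 2 (0.15, 0.40, 0.31 and 0.21). In replicates 3 to 5 their estimates were negative (-0.55, -0.11, -0.24 and -0.34). At an unadjusted p under 0.05 in the limma interaction test, the chamber differences of 5 of 78 members were unequal, beside 2509 of 12422 genes tested. The difference of chamber differences was called for 1 member, Mrpl24, a protein by the exit tunnel, where 5.21% of all genes tested were called. Mrpl24 stood at 91.03, 109, 157, 141 and 140.3 normalized reads in atrial and at 176, 166, 140.0, 142 and 127 in ventricular replicates 1 to 5. In replicates 1 and 2 both atrial values were below both ventricular ones, whereas in replicates 3 to 5 the values were mixed. Replicates 1 and 2 gave a log2 difference of -0.77, replicates 3 to 5 one of 0.10, and the interaction was 0.87 ± 0.18 (SE; limma adjusted p = 0.0243). As to levels, the ratio of replicates 1 and 2 to replicates 3 to 5 ran from 0.389 to 4.52 in atrial and from 0.465 to 4.63 in ventricular libraries. It exceeded 1.5 in both chambers for 8 members (Mrpl18, Mrpl28, Mrpl36, Mrps5, Mrps17, Mrps18b, Mrps21 and Mrps25) and was as far below 1 in both for 5 (Mrpl43, Mrps2, Mrps6, Mrps27 and Mrps33). Mrps21 gave the highest ratios, with 928, 810.4, 225, 206 and 145 in atrial and 1045, 1207, 242, 256 and 231 in ventricular replicates 1 to 5. Its chamber difference of -0.36 ± 0.67 (SE) did not pass (limma adjusted p = 0.831) and passed with the block (0.0226).

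Upstream sequence was read for the members from the RefSeq promoter table of GRCm38.p6, in which 69 of the 78 matched, with 300 bases per window (250 before and 50 after a start). The 69 members had 75 windows, with 4 for Mrpl48, 3 for Mrpl2 and 2 for Mrps16. Letters in any window of a member were counted. The ETS-type letters CCGGAAG, on either strand, occurred in 26 of 69 members, or 37.7%, beside 9.93% of all 27025 genes in the table and 20.2% of those tested. The YY1-type letters AAGATGGC occurred in 12 of 69, or 17.4%, beside 3.19% and 5.34%. The NRF1-type letters, a palindrome shown in capitals in the Mrpl9 stretch, stood in 3, Mrpl9, Mrpl32 and Mrpl39, or 4.35%, beside 1.07% and 2.39%. The E-box CACGTG stood in 5 of 69, or 7.25%, beside 8.09% and 11.9%, and the ERR-type letters TCAAGGTCA in 0 of 69, beside 0.466% and 0.304%. The ETS-type and YY1-type letters can share an AAG, and members were richer in G and C (median 58.4%) than all genes of the table (52.4%). Members with the ETS-type letters had a median log2 difference of -0.50, close to the -0.47 of all 78. The following stretches show 5 members that were lower and Mrps6, which was higher, as a comparison of their letters. Each is 150 bases of GRCm38.p6 read 5′ to 3′ on the strand of the gene, and ends just before the first exon base annotated in RefSeq or GENCODE. Capitals mark the ETS-type letters in Mrps18a and the NRF1-type letters in Mrpl9. The YY1-type letters of Mrpl42 and Mrps18a lie past the start and outside the stretch.
Mrpl42, chr10:95501950-95502099, reverse strand: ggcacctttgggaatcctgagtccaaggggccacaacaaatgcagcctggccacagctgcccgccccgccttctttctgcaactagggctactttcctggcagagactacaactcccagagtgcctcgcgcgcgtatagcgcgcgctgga
Mrpl45, chr11:97315566-97315715, forward strand: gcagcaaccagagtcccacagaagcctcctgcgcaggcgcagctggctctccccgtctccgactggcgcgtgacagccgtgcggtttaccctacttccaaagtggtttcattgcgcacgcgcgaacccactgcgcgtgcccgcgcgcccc
Mrpl12, chr11:120484463-120484612, forward strand: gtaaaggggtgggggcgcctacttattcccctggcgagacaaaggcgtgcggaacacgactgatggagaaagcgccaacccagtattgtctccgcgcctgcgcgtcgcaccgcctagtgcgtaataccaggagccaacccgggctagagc
Mrpl9, chr3:94443168-94443317, forward strand: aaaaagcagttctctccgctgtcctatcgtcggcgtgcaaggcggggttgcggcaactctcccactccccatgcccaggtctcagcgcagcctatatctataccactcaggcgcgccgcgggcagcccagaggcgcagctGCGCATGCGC
Mrps18a, chr17:46110836-46110985, forward strand: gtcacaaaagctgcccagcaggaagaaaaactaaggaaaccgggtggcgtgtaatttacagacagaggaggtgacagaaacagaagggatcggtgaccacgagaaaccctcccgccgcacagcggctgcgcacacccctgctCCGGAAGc
Mrps6, chr16:92058120-92058269, forward strand: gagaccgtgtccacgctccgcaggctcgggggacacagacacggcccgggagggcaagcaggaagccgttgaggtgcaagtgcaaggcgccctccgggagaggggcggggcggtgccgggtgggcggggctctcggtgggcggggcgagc
The windows of Mrpl12, Mrpl45 and Mrps6 held none of the 5 motifs, which says only that these letters are not there. A match is a run of letters and not a measured binding site.

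Some members share their start region with another gene, and the share of all genes that do so was not computed. A neighbour on the opposite strand starts within 500 bases of 25 members, in 24 pairs (a limit chosen after the values were seen), and 1 pair, Mrpl46 and Mrps11, is between members. Of the 23 tested partners 1 was called different (Ndufs6, lower beside Mrpl36), where 14.7% of all genes tested were. With the block 3 partners were lower (16% of all genes tested), Wdfy1 beside Mrpl44 (limma adjusted p = 0.00557) and Ptcd2 beside Mrps27 (0.0367) being added. Of the partners 13 had a negative estimate (51.3% of all genes tested), and the partners' median log2 difference was -0.07. In some pairs the estimates had opposite signs, a difference that was not tested. Mrps18b gave -0.67 ± 0.34 (log2 difference ± SE) while Ppp1r10, a phosphatase regulator that starts 45 bases away, gave 0.43 (adjusted p = 0.376). Mrpl51 gave -0.66 ± 0.17 and Ncapd2, a condensin subunit that starts 100 bases away, gave 0.16 (adjusted p = 0.552).

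**Figure D5:**
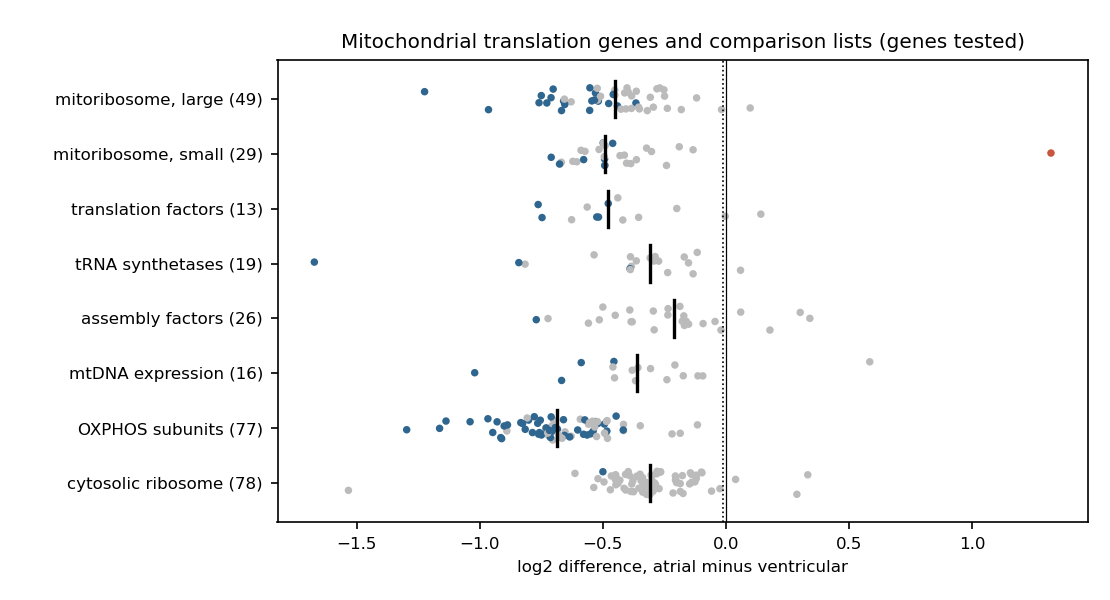
Log2 difference, atrial minus ventricular, of every tested gene in the members' subunits and in 6 comparison lists; vertical bars are list medians, the dotted line is the median of all genes tested, blue points were called lower and red points higher. The members' medians (-0.45 and -0.49) lie between those of the cytosolic ribosome (-0.31) and of the respiratory chain (-0.68).

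The tables hold 5 further mitoribosome proteins under other symbols, and 1 was lower (6.56% of all genes tested). This gene, Ptcd3, which sits on the small subunit near the entry of the message, stood at 531, 504, 521, 521 and 556 normalized reads in atrial and 1010.3, 887, 819, 760.5 and 854 in ventricular replicates 1 to 5. No values overlapped, and the log2 difference was -0.71 ± 0.10 (SE; limma adjusted p = 0.000782). Dap3, a GTP-binding protein of the small subunit, gave -0.26 ± 0.11 (adjusted p = 0.159), and Chchd1, Aurkaip1 and Gadd45gip1 did not pass either, the latter pair passing with the block (0.00216 and 0.0298).

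Among the factors that work on the mitoribosome, 5 of 13 tested translation factors were lower and 0 higher (6.56% and 8.12% of all genes tested). The median log2 difference of the 13 was -0.48, and 9 were lower with the block (16% of all genes). Tufm, the elongation factor that delivers transfer RNA, stood at 298, 319.6, 345, 374 and 359.8 normalized reads in atrial and at 460.2, 639, 633, 551 and 612 in ventricular replicates 1 to 5, without overlap (-0.76 ± 0.12, limma adjusted p = 0.00166). Oxa1l, the insertase that receives new chains in the inner membrane, gave -0.75 ± 0.12 (adjusted p = 0.00162). The translocation factor Gfm1 and the recycling factor Mrrf were lower at -0.53 ± 0.12 and -0.48 ± 0.12 (adjusted p = 0.0140 and 0.0234). Of 19 mitochondrial aminoacyl-tRNA synthetases and amidotransferase subunits 3 were lower and 0 higher (6.56% and 8.12% of all genes tested). Lars2 was left out of this list because its symbol collects ribosomal RNA reads. The median of the 19 was -0.31, and 9 were lower with the block (16% of all genes). Ears2, which charges glutamate transfer RNA, stood at 150.3, 163, 88.6, 89.03 and 83.02 in atrial and at 526, 407, 309, 299 and 276 in ventricular replicates 1 to 5. Its 3.17-fold higher ventricular mean (-1.67 ± 0.25, limma adjusted p = 0.00107) exceeded the fold of every member. Yars2 and Rars2, for tyrosine and arginine, gave -0.84 ± 0.18 and -0.39 ± 0.12 (adjusted p = 0.00924 and 0.0489).

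Assembly factors modify the ribosomal RNA and put the subunits together. Of 26 tested 1 was lower and 0 higher (6.56% and 8.12% of all genes tested). The median of the 26 was -0.21, and 6 were lower with the block (16% of all genes). The 1 gene was Rcc1l, at 31.2 ± 4.99 against 54.5 ± 11.8 normalized reads (SD, n = 5 each; -0.77 ± 0.20, limma adjusted p = 0.0243). Of 16 genes for transcription, replication and RNA processing in mitochondria 4 were lower and 0 higher (6.56% and 8.12% of all genes tested). The median of the 16 was -0.36, and 6 were lower with the block. Lrpprc, which stabilizes mitochondrial messages, stood at 1281, 1389, 903, 866 and 844 in atrial and at 2460.0, 2615, 2086, 1665 and 1813 in ventricular replicates 1 to 5, 2.01-fold higher in the latter by the means (-1.02 ± 0.19, limma adjusted p = 0.00381). Hsd17b10 and Trmt10c, partners in the enzyme that cuts the 5′ ends of mitochondrial transfer RNAs, gave -0.67 ± 0.10 and -0.59 ± 0.16 (adjusted p = 0.00106 and 0.0325), and Pnpt1, an RNA-degrading enzyme, gave -0.46 ± 0.10 (adjusted p = 0.0128).

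The respiratory chain and ATP synthase, whose mitochondrial-DNA-encoded subunits the mitoribosome makes, gave 45 of 77 tested nuclear-encoded subunits lower and 0 higher (6.56% and 8.12% of all genes tested). The median log2 difference of the 77 was -0.68, and 74 were lower with the block (16% of all genes). Sdha, of complex II, averaged 4305 ± 241 in atrial and 9510.1 ± 1074 in ventricular libraries (SD, n = 5 each), 2.21-fold higher in the latter (-1.14 ± 0.11, limma adjusted p = 7.05e-05). Ribosomal proteins of the cytosol, 78 of them tested, gave 1 lower (Rplp2, -0.50 ± 0.12, limma adjusted p = 0.0167) and 0 higher (6.56% and 8.12% of all genes tested). The median of the 78 was -0.31 with 75 negative estimates, and 45 were lower with the block (16% of all genes). Cytosolic ribosomal protein genes have many processed copies that can take up their reads. By their median the members stood between the respiratory chain and the cytosolic ribosome, and the difference between the lists was not tested. With all 10 libraries and no block, in none of these 7 lists, from the mitoribosome proteins with other symbols to the cytosolic ribosome, was a gene higher by limma at an unadjusted p under 0.05, by edgeR or by DESeq2.

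Markers of other cell types also differed between the chambers. All 5 epicardial markers were higher in atrial libraries, where they summed to 2273 to 5412 normalized reads against 294 to 1399 in ventricular libraries. Of 4 smooth muscle markers 2 were lower in atrial libraries (sums of 1038 to 6189 against 7764 to 15002) and with the block 1 was higher besides, and of 6 fibroblast markers 1 was lower (21146 to 36050 against 8992 to 61883). In replicates 3 to 5 alone 5 of 6 fibroblast markers were lower (26.6% of all genes tested), with a median log2 difference of -0.97. In replicates 1 and 2 alone 0 were called, with a median of 0.81. The difference of chamber differences between the library sets was called for 3 of 6 fibroblast and 3 of 4 smooth muscle markers (5.21% of all genes tested). Endothelial markers had 1 of 5 higher (304 to 2131 against 82.9 to 1083), and macrophage markers 1 of 3 tested (74.01 to 150.3 against 20.4 to 100.3). Of 3 glial markers 1 was tested and not called (29.0 to 49.7 against 25.4 to 48.7), and none of 3 adipocyte markers reached the minimum for testing (0 to 11.03 against 0 to 10.4). Of 5 red cell markers the globin genes Hbb-bs, Hbb-bt, Hba-a1 and Hba-a2 were listed at 0 in all libraries. The other, Alas2, was tested and not called over all libraries (19.5 to 634 against 81.2 to 263). In replicates 3 to 5 alone Alas2 was lower in atrial libraries (26.6% of all genes tested), with a log2 difference of -1.77. The part of these cells in the lower values of the members was not tested.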

How the data were processed

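RNA of 5 atrial and 5 ventricular cardiomyocyte libraries was extracted with Trizol and made into ScriptSeq v2 libraries, per the labels' protocols. Trimmomatic, HISAT2 and featureCounts were used on GRCm38 (mm10), per the submitters' processing notes, and which versions, annotation and strand setting were chosen is not given in the sources used here. Per the file headers, the deposited signal of a gene is its read count scaled by the authors with DESeq2's size factor of the library. Dividing by each library's smallest step recovered whole reads, within 0.01, for 100% of values. A value of 0 allows up to 3 reads (1.70 to 10.4 normalized reads), for counting error only.

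The 12422 genes averaging at least 10 normalized reads were tested together with limma 3.58.1 (R 4.3.3; moderated, two-sided, robust, with a mean-variance trend) on log2(normalized reads + 1), atrial minus ventricular, without a block, and adjusted by Benjamini-Hochberg over all of them. The scale understates changes of genes with few reads. Folds are ratios of means. Alternatives were edgeR 4.0.16 and DESeq2 1.42.0 on recovered reads, other scalings, filters and pseudocounts, a replicate block, the library sets and leaving out each library. Replicate numbers were treated as pairing because deviations of same-numbered libraries all correlated above 0.1 (0.582, 0.637, 0.623, 0.556 and 0.631). The number does not stand apart from the library set: the closest library of another number correlated at 0.345, 0.336, 0.614, 0.633 and 0.636, above the own number for replicates 4 and 5. With each library set centred separately replicates 1 and 2 correlated at 0.405. This is a single value for both numbers, because 2 libraries centred on their own mean mirror each other. Replicates 3, 4 and 5 correlated at -0.0394, 0.00205 and 0.0678. Blocked values stand beside the main counts and the list counts that they change. Replicates differed beyond sampling noise and were counted separately. The limma and edgeR fits without a block were tried on simulated counts that held no library sets and no pairing. That trial does not bear on the blocked fits or on those of part of the libraries.

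Members and gene lists were chosen with earlier results of these data known. Members named were those called, up to 12 per subunit by p, and the extremes in difference and in level per kb. Members of 4 structural groups, members unequal between library sets and 8 members chosen for their known roles were added, as were up to 4 called genes per comparison list. This gave 48 members and 18 other genes, and names beyond them were chosen after their values were seen.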

Additional observations from a re-analysis of the deposited data

Results flagged for a closer look

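Among 132 groups of 5 libraries examined, 10 held a library set apart from the other 4 by more of the group's range than Dixon's 95% limit of 0.71 allows, where chance gives about 1 in 20. Atrial replicate 2 was the library in 8 of them, each time as the highest. The gap was 0.720 of the range for Mrpl12 (694 normalized reads, next 502), 0.715 for Mrpl18 (1806, next 1069), 0.731 for Mrpl42 (875, next 779) and 0.730 for Mrpl47 (154, next 113). It was 0.735 for Mrpl51 (502, next 347), 0.773 for Mrpl57 (70.5, next 44.9), 0.853 for Mrps18a (149.7, next 126) and 0.720 for Gfm1 (1677, next 1391). Without this library Mrpl12, Mrpl42, Mrpl47, Mrpl51 and Mrps18a were still called lower in atrial libraries. In atrial replicate 1, Atp5pb, an ATP synthase subunit, was the lowest (2622, next 3399, gap 0.897) and Yars2 the highest (77.2, next 64.8, gap 0.717).

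The chamber difference of Mrpl24 was unequal between the library sets by the interaction test, with a log2 value of 0.869 for replicates 3 to 5 minus replicates 1 and 2 (limma adjusted p = 0.0243). It was the 1 member of 78 called in that test.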

How the results depend on the processing

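The subunit medians stayed negative under every alternative run, from -0.38 (equal totals) to -0.52 (replicates 1 and 2 alone, or without atrial replicate 2) for the large and from -0.42 (equal totals) to -0.56 (without atrial replicate 2) for the small subunit, with -0.45 and -0.49 as reported. Genes called lower, 20 large and 7 small as reported, became 37 and 24 with the replicate block (4017 of all genes called, against 1824), 37 and 25 with edgeR and the block (4561, chosen after seeing the data), 37 and 24 with the library set as a term (3955), 42 and 26 in replicates 3 to 5 alone (6561), 1 and 0 in replicates 1 and 2 alone (638), 13 and 4 with no filter, 6 and 3 at equal totals, 11 (large) at equal totals without Rn45s and Lars2, and 12 (small) with DESeq2. Without 1 library they ranged from 10 to 21 and from 3 to 9, and the large-subunit median from -0.39 to -0.52. The small-subunit count of higher genes was 0 in replicates 1 and 2 alone and, with Mrps6 set aside, among members that overlap no gene. By ribosome structure 21 of 51 and 5 of 26 were lower (39 and 21 with the block). Equal totals raised the share of higher calls among all genes from 55.3% to 65.3%.

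Over 48 named members, 953 values under alternatives kept side and direction, 111 lost and 75 gained a call, and 12 changed sign, in 4 members that were never called. These were Mrpl17 (-0.11), Mrpl24 (0.10) and Mrps12 (0.012) in replicates 3 to 5 alone, and Mrpl43 at equal totals (0.051), at equal totals without Rn45s and Lars2 (0.040), in replicates 1 and 2 alone (0.31) and without 1 library (-0.29 to 0.16, above 0 without any 1 of 6). The cause was not tested. Of 23 named members called, 13 kept the call without each library in turn, and the other 5 called members all lost it in 6 to 9 of 10 cases. Ventricular replicates 1 and 2 are the shallowest, and the fewest reads of any member in a library were 8 (Mrpl43 and Mrps33).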
